A study of Mus musculus with 6 samples.

Results

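Subiculum-like Slc17a6 and Nts neurons were taken as the cells of mouse CA1 that held UMIs from 2 or more of the genes Slc17a6, Nts, Vwc2l and Fn1. A UMI (unique molecular identifier) marks 1 captured RNA molecule. Members were selected on these UMIs among barcodes in which more than 500 genes were detected, but no more than 8000, and whose mitochondrial genes took up to 40% of UMIs, and a cell with a UMI of the endothelial genes Cldn5 or Flt1 or of the GABAergic genes Gad1 or Gad2 was left out. Of 6000 barcodes 1632 passed the filter, 1337 of these had no UMI of the excluded genes, and 59 were members. They were compared with 268 other Slc17a7-positive cells, which passed the same filters, carried a UMI of Slc17a7 and had UMIs of at most 1 rule gene. Because the 4 genes chose the members, their values and those of Slc17a7 and the excluded genes are given as a description, with no test.

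The study asked how a single injection of erythropoietin (EPO) acts on gene expression in single cells of CA1, measured by Drop-seq, a droplet method that reads the 3' ends of polyadenylated RNA. Male C57Bl6 mice of postnatal day 28 received 5000 IU/kg recombinant human EPO (mice 2, 4 and 6) or placebo (mice 1, 3 and 5), and CA1 was dissociated 6 h later. Each mouse gave 1 library, and the titles also give a D number, D1 for placebo mice 1 and 3 and EPO mouse 2 and D2 for the other 3 mice. The mouse is the replicate throughout, since cells of 1 mouse share an animal, a dissection and a library.

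Vesicular glutamate transporters load glutamate into synaptic vesicles. Slc17a7 (VGLUT1) is the main transporter of cortical and CA1 pyramidal neurons, whereas Slc17a6 (VGLUT2) prevails in thalamus and brainstem and is found in fewer cells of cortex and of the subicular complex, the output region that borders CA1. Nts encodes the peptide neurotensin, Vwc2l a secreted protein with von Willebrand factor C domains, Fn1 the matrix protein fibronectin, and Fam19a2 a secreted protein of brain.

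In the mm10 genome the rule genes are on 3 chromosomes. Slc17a6 spans chr7:51622006-51671119 on the plus strand, Nts chr10:102481756-102490486 on the minus strand, Vwc2l chr1:70725715-70885397 on the plus strand and Fn1 chr1:71585520-71653200 on the minus strand. All are protein-coding genes, and the counts are of whole genes, with no position within them.

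Some barcodes were found in more than 1 mouse. Placebo mouse 1 and EPO mouse 4 shared 59 barcode sequences, of which 41 passed the filter in both, while every other pair of mice shared at most 9 and none that passed in both. For 41 of these 41 barcodes the best correlated cell of placebo mouse 1 was the one with the same barcode, with a median r of 0.725 over genes against 0.273 for its other cells, and the barcode held a median of 0.248 times as many UMIs in EPO mouse 4. The shared barcodes took in 4 of the 5 members of placebo mouse 1 and 1 of the 14 members of EPO mouse 4. Leaving out all barcodes found in more than 1 mouse left placebo mouse 1 with 1 member, and the numbers of genes called and the share of members are given also that way. For some genes, values of placebo mouse 5 and EPO mice 2 and 6, which had no passing barcode in common with another mouse, are given beside those of the other mice. Other genes are given only as ranges or pooled values, from which placebo mouse 1 cannot be taken out.

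The members numbered 5, 1 and 14 in placebo mice 1, 3 and 5, with 12, 14 and 13 in EPO mice 2, 4 and 6. They held 773871 UMIs in all, from 4096 UMIs in placebo mouse 3 to 231233 in EPO mouse 6. Their median was 8205 UMIs per cell against 5725 in the other Slc17a7-positive cells, and the members were the deeper class in placebo mouse 1 and in the 3 EPO mice and the shallower one in placebo mice 3 and 5. A rule that asks for 2 detected genes favours deep cells, and the part of depth in the results was not tested beyond the matched depth fit given with them. Scrublet called 2 members and 1 other cell doublets, of 27 calls among 1632 barcodes.

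Slc17a6, the transporter, was detected in 53 of the 59 members. Its level in members was 332, 977 and 205 CPM (UMIs scaled to the total of that class and mouse) in placebo mice 1, 3 and 5, with 345, 410 and 264 CPM in EPO mice 2, 4 and 6. In the other Slc17a7-positive cells it lay between 3.24 and 22.7 CPM, so that no mouse brought the classes near each other, as the rule sets. The 59 members held 249 of the 403 Slc17a6 UMIs of all passing barcodes, and 101 more lay in cells with a UMI of an excluded gene. Slc17a7 itself was found in 34 of 59 members, at 80.2 to 141 CPM in the 5 mice with at least 5 members, against 159 to 300 CPM in the cells chosen for it. Slc17a8, the remaining vesicular glutamate transporter, had 1 UMI in the members.

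Nts, the neuropeptide, was detected in 26 members, with 300 of the 575 UMIs of all passing barcodes. Its level in members was 447 and 294 CPM in placebo mice 1 and 5, with 656, 371 and 298 CPM in EPO mice 2, 4 and 6. The only member of placebo mouse 3 had no Nts UMI, a count of 0 that allows up to 732 CPM (3 counts, counting error only). Ntsr1, a neurotensin receptor, had 0 UMIs in members and 13 in other cells.

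Vwc2l was detected in 31 members at 34.9 to 244 CPM over the 6 mice, and Fn1 in 21 members at 53.5 to 96.0 CPM in the 5 mice with at least 5 members. Fn1 was the rule gene least bound to the members, since 189 of its 270 UMIs, 70%, lay in cells with a UMI of an excluded gene. Fam19a2, which came with the label but not with the rule, was detected in 21 members at 48.0 to 488 CPM and in 25 of 268 other cells at up to 40.4 CPM, and its later call is no independent result.

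Cells that should lack these genes gave an estimate of the background of free RNA. Members were left out of these cells, which by itself lowers their share with a rule gene. The share in members is likewise set by the rule, so the contrast is a description. Oligodendrocyte cells (194 cells with UMIs of at least 3 of Mag, Mog, Mobp, Cldn11 and Ermn and none of Slc17a7; median 4460 UMIs) carried a Slc17a6 UMI in 1.03% of cells, against 8.21% of the other Slc17a7-positive cells (median 5725 UMIs) and 89.8% of members. When each cell was thinned to 1000 UMIs, 28.8% of members, 1.89% of other cells and 0.521% of oligodendrocyte cells kept a Slc17a6 UMI. The corresponding shares for Nts were 16.9%, 0.755% and 0.521%. The values for Vwc2l were 13.6%, 0.755% and 0%, where 0 of 192 oligodendrocyte cells allows 1.56% (3 cells).

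The number of cells fell steadily with the number of rule genes, with no gap at the threshold of the rule. Of the 1337 cells without excluded genes 1158 had no rule gene, 120 had 1, 46 had 2, 13 had 3 and none had 4. Just outside the rule were 45 cells with Slc17a6 alone, 33 with Nts alone, 25 with Vwc2l alone and 17 with Fn1 alone, and 49 of these 120 were Slc17a7-positive and counted among the other cells. A further 17 cells with at least 2 rule genes had a UMI of an excluded gene.

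The rule genes did not occur together evenly. Slc17a6 with Vwc2l was the most frequent pattern, in 23 members, followed by Slc17a6 with Nts in 12, Slc17a6 with Nts and Fn1 in 7, and Slc17a6 with Fn1 in 6. Nts and Vwc2l, by contrast, met in 4 of 59 members. The members thus held 22 cells with Nts and no Vwc2l (the Nts set), 27 with Vwc2l and no Nts (the Vwc2l set), 4 with both and 6 with neither. A rule that asks for any 2 of 4 genes by itself makes 2 of them look exclusive, and the sets were formed after the values were seen, so what follows is a description. Slc17a6 was present in both, in 19 of 22 cells of the Nts set and 26 of 27 of the Vwc2l set. The Nts set came from placebo mice 1 and 5 (2 and 5 cells) and EPO mice 2, 4 and 6 (6, 6 and 3 cells), the Vwc2l set from all 6 mice (3, 1 and 6 cells from placebo, and 4, 7 and 6 from EPO mice, in the order of their numbers).

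**Figure D1:**
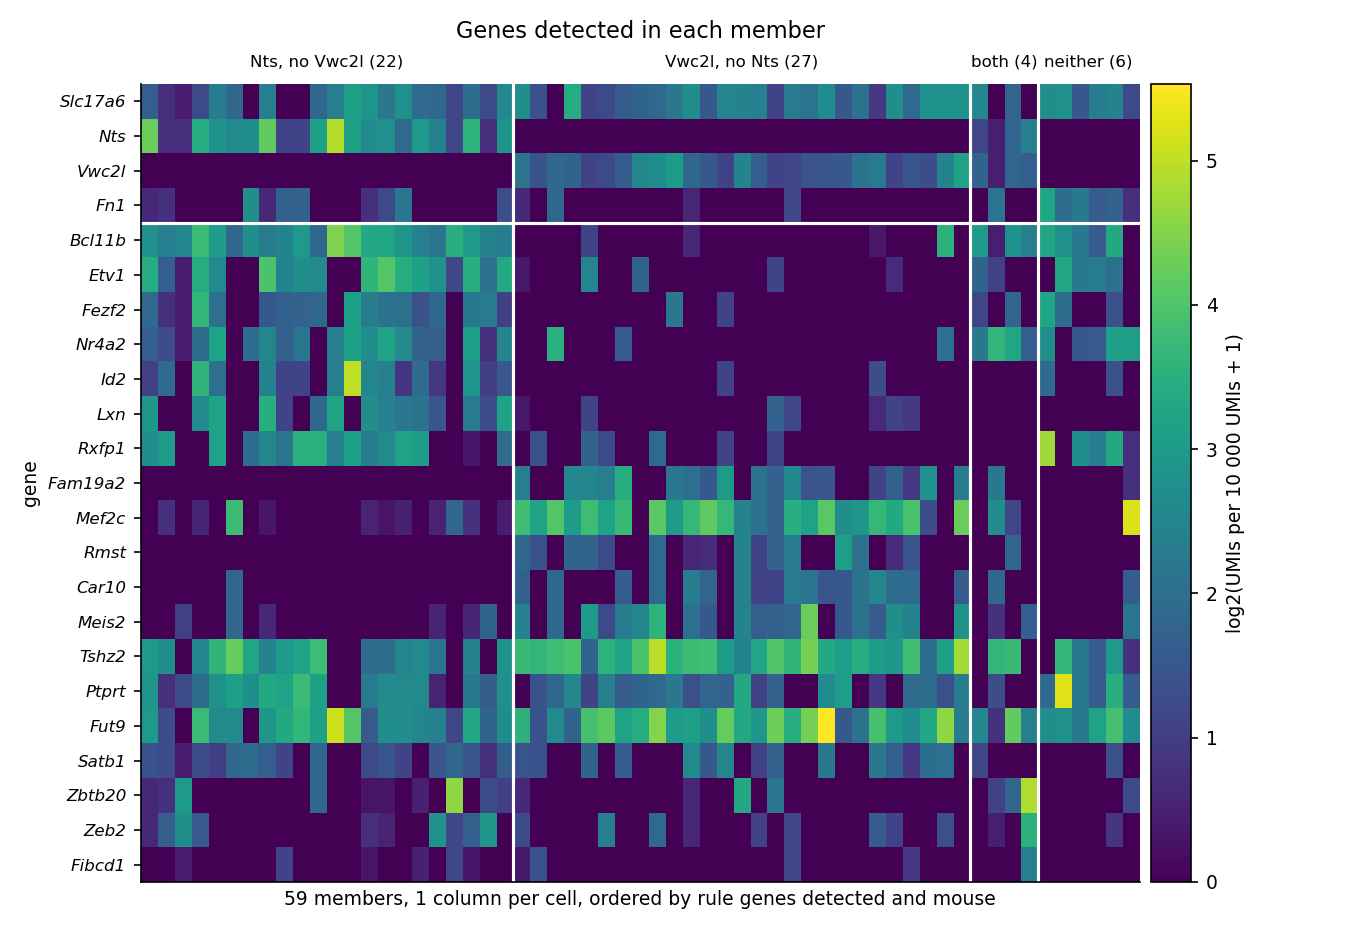
Genes (rows) in each of the 59 members (columns), as log2 of UMIs per 10 000 UMIs plus 1 on the colour scale, with the 4 rule genes above the white line. Columns are grouped into 22 cells with Nts and no Vwc2l, 27 with Vwc2l and no Nts, 4 with both and 6 with neither; Bcl11b fills all 22 columns of the first group and Fam19a2 none of them.

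Genes that the rule did not use divided along the same line. Bcl11b (Ctip2), a transcription factor of subcerebral projection neurons and of CA1 pyramidal cells, was detected in 22 of 22 cells of the Nts set and in 4 of 27 cells of the Vwc2l set. In the Nts set it was at 519 and 759 CPM in placebo mice 1 and 5 and at 528, 716 and 539 CPM in EPO mice 2, 4 and 6. In the Vwc2l set of the same mice it was at 0, 32.1, 21.7, 0 and 99.4 CPM, and the sets did not overlap in any mouse. In the other Slc17a7-positive cells Bcl11b was at 329 to 544 CPM, close to the Nts set and well above the Vwc2l set.

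Etv1, a transcription factor used as a marker of layer 5 neurons, was at 641 and 395 CPM in the Nts set of placebo mice 1 and 5 and at 1056, 1056 and 778 CPM in that of EPO mice 2, 4 and 6, and at 0 to 160 CPM in the Vwc2l set. Fezf2, which specifies subcerebral projection neurons, was at 183 to 425 CPM in the Nts set and at 0 to 32.1 CPM in the Vwc2l set, with UMIs in 18 of 22 and 2 of 27 cells. Lxn, a carboxypeptidase inhibitor expressed in parts of the lateral cortex and claustrum, was at 288 to 672 CPM against 0 to 65.5 CPM. Rxfp1, the relaxin receptor, was at 93.3 to 611 CPM in the Nts set and 0 to 128 CPM in the Vwc2l set, so that here the ranges overlapped across mice. Nr4a2 and Id2, transcriptional regulators, were at 416 and 332 CPM over the whole Nts set and at 27.7 and 23.7 CPM over the whole Vwc2l set.

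The Vwc2l set carried genes that were scarce in the Nts set although its cells were shallower, with a median of 6523 UMIs against 19646. Fam19a2 had no UMI in any of the 22 cells of the Nts set, which held 428067 UMIs, and was found in 19 of 27 cells of the Vwc2l set. In the Vwc2l set it was at 330, 488 and 417 CPM in placebo mice 1, 3 and 5 and at 326, 240 and 186 CPM in EPO mice 2, 4 and 6. Mef2c, a MADS box transcription factor of activity-dependent gene expression, was at 1275, 732 and 995 CPM in the Vwc2l set of these placebo mice and at 1324, 699 and 1019 CPM in that of the EPO mice, against 16.0 to 91.1 CPM in the Nts set. The long noncoding RNA Rmst was found in 16 of 27 cells of the Vwc2l set and none of the Nts set, the carbonic anhydrase-related Car10 in 18 and 1, and the homeobox gene Meis2 in 20 and 6.

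**Figure D2:**
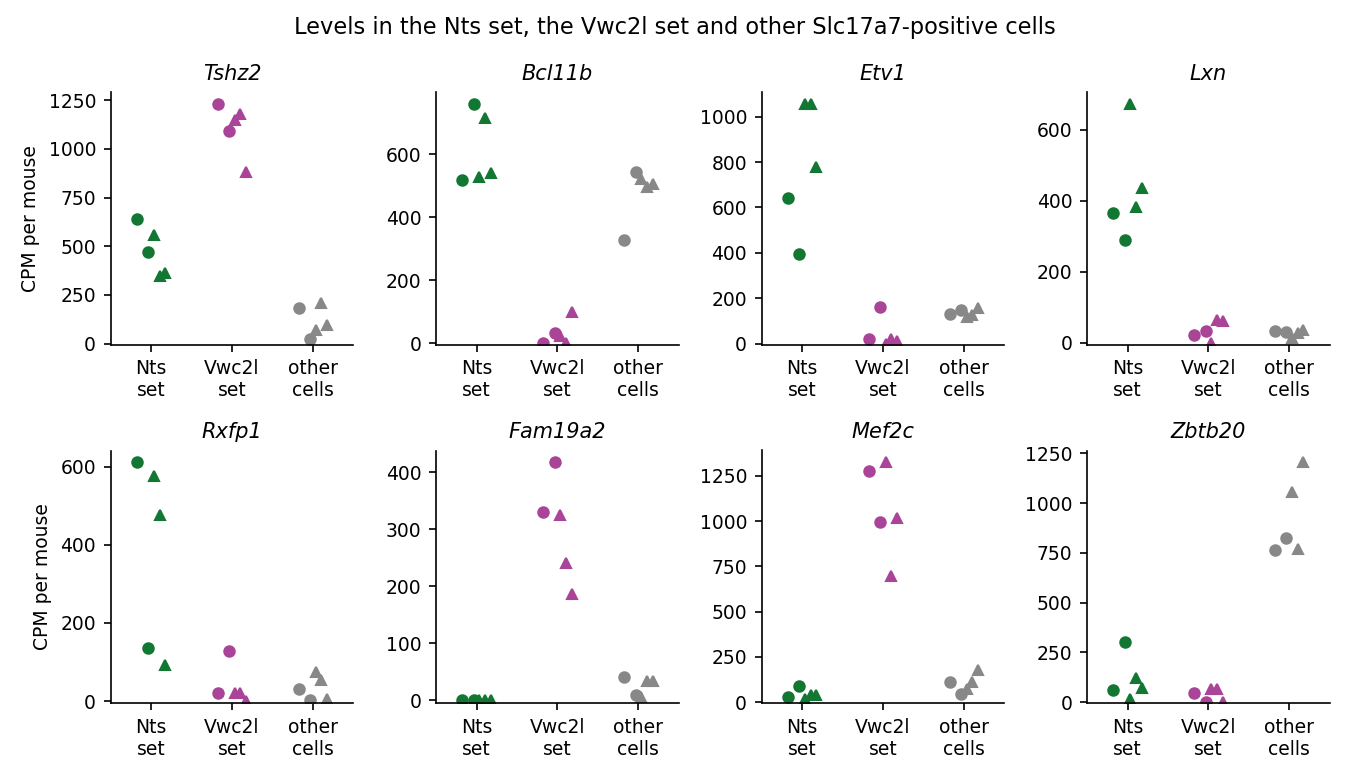
CPM of 8 genes (linear axes, 1 panel per gene) in the Nts set, the Vwc2l set and the other Slc17a7-positive cells of the 5 mice with at least 5 members; circles are placebo and triangles EPO mice. Bcl11b, Etv1 and Lxn were higher in the Nts set and Fam19a2 and Mef2c in the Vwc2l set of each of the 5 mice, while Tshz2 was above and Zbtb20 below the other cells in both sets.

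Other genes lay on the same side of the other cells in both sets. Tshz2, a zinc finger homeobox factor, was at 641 and 471 CPM in the Nts set of placebo mice 1 and 5, with 560, 346 and 363 CPM in that of EPO mice 2, 4 and 6. In the Vwc2l set of these mice it was at 1231, 1091, 1150, 1179 and 882 CPM, above the Nts set in each mouse, whereas the other Slc17a7-positive cells reached at most 210 CPM. Zbtb20, the zinc finger factor that specifies CA1 pyramidal identity, was at 119 CPM over the Nts set, 31.6 CPM over the Vwc2l set and 932 CPM over the other cells. In the Nts set a cell of placebo mouse 5 held 20 Zbtb20 UMIs and a cell of EPO mouse 4 held 18. No other cell of that set held more than 4.

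The data bore out the label in part only. Slc17a6 and Nts, the genes in the name, met in 21 of 59 members, and Fam19a2 was absent from the Nts set. Of 14 subiculum genes other than the rule genes 13 were in the table and 4 had enough UMIs for the test below. Tshz2 was high in both sets, Lxn in the Nts set and Fam19a2 in the Vwc2l set. The cells are therefore called members of the Slc17a6, Nts, Vwc2l and Fn1 rule in what follows, and the sets carry the names of their genes, with no cell type.

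Cells just outside the rule were set beside the sets. Among the other Slc17a7-positive cells, 13 had Nts as their only rule gene and 8 had Vwc2l. Fam19a2 was at 0 CPM in the former and 94.9 CPM in the latter, Mef2c at 48.8 and 169 CPM, and Fezf2 at 214 and 31.6 CPM, in the same order as in the sets. Etv1, at 195 and 169 CPM, and Bcl11b, at 342 and 221 CPM, were much closer to each other in these cells than in the sets. Tshz2 was at 24.4 and 348 CPM, and Zbtb20, at 415 and 422 CPM, lay between the members and the other cells. The 8 cells also held the oligodendrocyte gene Mobp at 1856 CPM, of which 171 of 176 UMIs lay in 1 cell, and the part of that cell in these values was not tested.

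Gene expression of the members was then compared with that of the other Slc17a7-positive cells within mice, on UMIs summed per mouse and class, with edgeR's quasi-likelihood test and the mouse as a block. Placebo mouse 3, with 1 member, was left out of all fits, which leaves 5 mice. Of 6146 genes tested, which had enough UMIs over both classes and were neither rule genes, excluded genes nor Slc17a7, 305 were higher and 351 lower in members at an adjusted p under 5%, together 10.7% of genes (4.96% higher and 5.71% lower). The median log2 fold change of all genes tested was -0.01. Of the genes called, 247 were higher and 310 lower in each of the 5 mice, which 9.68% and 11.3% of all genes tested were, with no test. In the pooled sets, 264 of the 305 higher genes were above the other cells in both the Nts and the Vwc2l set. A further 29 were above in the Nts set only and 12 in the Vwc2l set only. The call rests mostly on these same cells, so this count is largely set in advance and is a description. It was not set against all genes tested. Without the barcodes found in more than 1 mouse, 4 mice remained and 567 genes were called, among them 506 of the 634 genes of the first call that were still tested. Leaving out EPO mice 2, 4 or 6 lowered the number called to 406, 320 and 325, and with both classes restricted to the members' middle range of UMIs, in 4 mice, 142 were called, of which 126 were among the 439 of the first call that could be tested.

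The genes with the largest changes, named by a rule on size and on the same direction in each of the 5 mice, were led by Syt2, a calcium sensor of fast transmitter release. Syt2 was at 89.5 and 71.3 CPM in members of placebo mice 1 and 5 and at 126, 161 and 17.3 CPM in members of EPO mice 2, 4 and 6, and at 2.27 to 13.0 CPM in other cells, a log2 fold change of 3.81 ± 0.43 (SE, adjusted p = 2.67e-06). It was at 128 CPM in the Nts set, from 10 of 22 cells, and at 19.8 CPM in the Vwc2l set, from 3 of 27 cells. Lxn was at 166, 178, 353, 297 and 203 CPM in members of these mice and at 13.0 to 36.0 CPM in other cells (log2 fold change 2.95 ± 0.28, adjusted p = 1.82e-07). Rxfp1 was at 268, 196, 353, 410 and 43.2 CPM in members and at 2.27 to 74.5 CPM in other cells (log2 fold change 2.95 ± 0.30, adjusted p = 4.87e-07). The classes of Rxfp1 overlapped across mice, as the members of EPO mouse 6 lay below the other cells of EPO mice 2 and 4, but not within any mouse. Tshz2 was at 984, 615, 765, 532 and 640 CPM in members and at 24.9 to 210 CPM in other cells, with no overlap (log2 fold change 2.62 ± 0.27, adjusted p = 4.87e-07).

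The remaining genes of this group were Gucy1a3, a subunit of the nitric oxide receptor guanylate cyclase, BC048546, Lrrtm3, a postsynaptic adhesion protein, Ptprt, a receptor tyrosine phosphatase of synapses, Igfbp5, which binds insulin-like growth factors, and Vstm2a, with log2 fold changes from 2.33 to 2.94. Gucy1a3 and Vstm2a were mostly in the Vwc2l set, with 233 and 138 CPM against 42.0 and 25.7 CPM in the Nts set. Ptprt was mostly in the Nts set, with 456 CPM against 174 CPM, and both values were above the 57.2 CPM of the other cells. Lrrtm3 was at 88.8 and 59.3 CPM in the sets, the latter from 5 of 27 cells, and Igfbp5 at 51.4 and 39.5 CPM, with 22 and 10 of its 65 UMIs, so that cells outside both sets held the rest.

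Among the genes that were lower in members, Grem1, an antagonist of bone morphogenetic proteins, had the largest change. It was listed with 2 UMIs in all members against 100 in the other cells of these mice, at 0 CPM in members of placebo mice 1 and 5 and EPO mouse 2 and at 4.36 and 4.32 CPM in members of EPO mice 4 and 6, against 32.4 to 77.5 CPM in other cells (log2 fold change -4.11 ± 0.63, adjusted p = 0.000101). Penk, the precursor of the enkephalins, had 3 UMIs against 105 (log2 fold change -3.58 ± 0.60, adjusted p = 0.000252). Fibcd1, a transmembrane receptor used as a marker of CA1 pyramidal cells, was at 25.6 and 8.91 CPM in members of placebo mice 1 and 5 and at 8.40, 17.5 and 17.3 CPM in members of the EPO mice, against 72.1 to 258 CPM (log2 fold change -3.60 ± 0.33, adjusted p = 1.35e-07). Zbtb20 was at 51.1 and 178 CPM in members of the placebo mice and at 33.6, 105 and 117 CPM in members of the EPO mice, against 764 to 1204 CPM in other cells (log2 fold change -3.27 ± 0.22, adjusted p = 1.8e-09). Neither gene overlapped between classes in any pair of mice.

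The other genes of this group were Anln, a cytokinesis scaffold also found in myelin, the growth factor Tgfb2, the cyclin Ccnd1, the matrix proteoglycan gene Dcn, the protocadherin Pcdh8 and the transcription factor Grhl1, with log2 fold changes from -3.45 to -2.79. Dcn had no UMI in the Nts set and 67.2 CPM in the Vwc2l set, where 4 of 27 cells carried it and 1 cell held 14 of the 17 UMIs. Fitted changes of genes with a few UMIs in a class depend on the prior count and are no bounds.

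**Figure D3:**
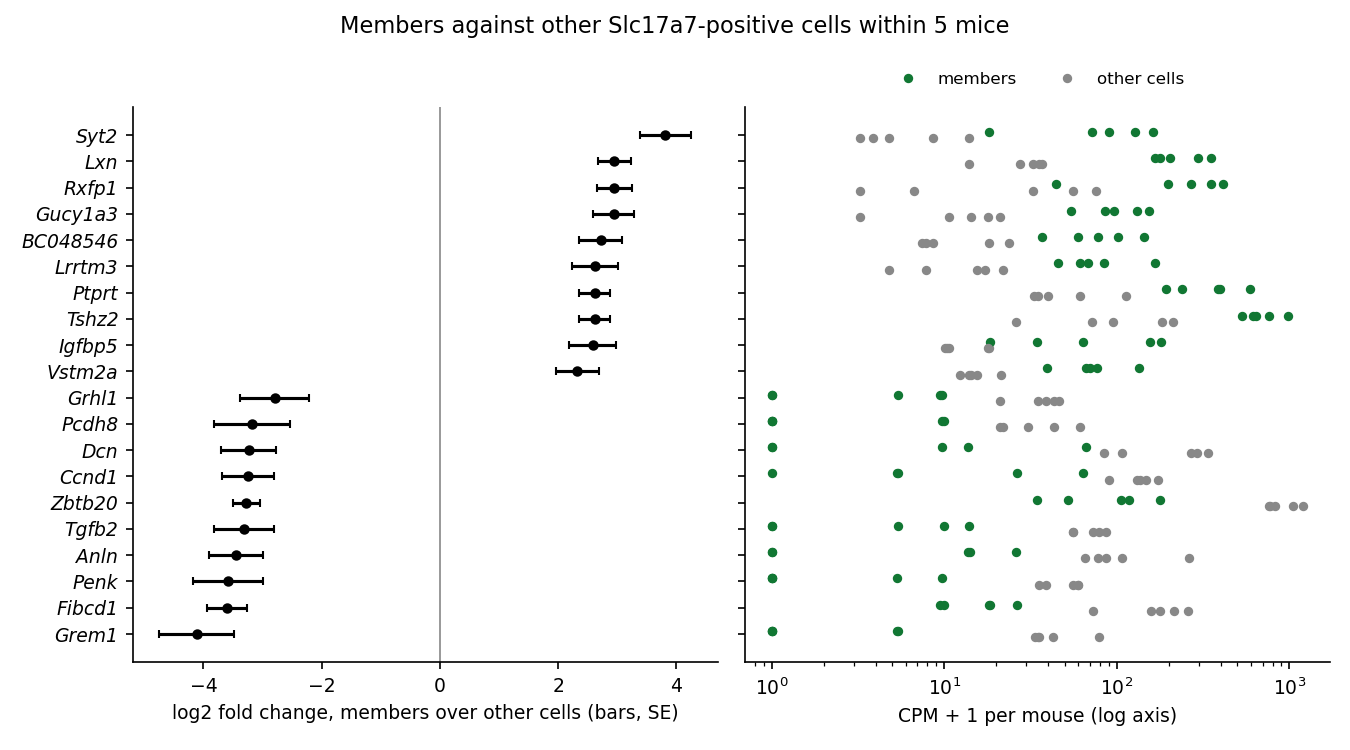
Left, log2 fold change of members over other Slc17a7-positive cells with its SE for the 10 higher and 10 lower genes named; right, CPM plus 1 in each of the 5 mice on a log axis, members in green and other cells in grey. The classes were apart for Tshz2, Lxn, Zbtb20 and Fibcd1 and overlapped across mice for Rxfp1.

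Marker genes of hippocampal and cortical regions were counted by list, and each count is to be read against the 4.96% of all genes called higher and the 5.71% called lower. Of 12 CA1 pyramidal genes tested (14 listed), 6 were lower in members (Zbtb20, Fibcd1, Spink8, Dcn, Calb1 and Nr3c2) and none was higher, with a median log2 fold change of -0.75 against -0.01 over all genes tested. The summed level of the list was 1194 to 1926 CPM in members and 2332 to 3723 CPM in other cells. Spink8, a protease inhibitor of CA1 pyramidal cells, had a log2 fold change of -2.25 ± 0.28 (adjusted p = 8.84e-06), and Wfs1, the wolframin gene of the endoplasmic reticulum, one of 0.66 ± 0.31 (adjusted p = 0.187). The Wfs1 UMIs of the Vwc2l set, 628 CPM, came from 8 of its 27 cells. Pou3f1, at 311 and 206 CPM, and Nov, at 233 and 239 CPM in members and other cells, did not pass the test and were mainly in the Nts set, at 488 and 416 CPM.

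Of the 4 subiculum genes tested, 3 were called higher, Lxn, Tshz2 and Fam19a2, the last of which came with the label and is no independent result, and Nnat was not called (log2 fold change -0.64, adjusted p = 0.165). The list summed to 1132 to 1994 CPM in members and 424 to 816 CPM in other cells. Tshz2 alone had a mean of 707 CPM in members and 116 CPM in other cells. Dlk1 and Gpc3 had no UMI in members, where 11 of the 13 genes in the table were detected, against 13 in other cells. The list of Rxfp1 and Tshz2 glutamatergic genes had 3 of 5 tested genes higher (Rxfp1, Tshz2 and Tshz3) and 1 lower, the copine Cpne7, at 359 CPM in other cells and 87.1 CPM in members (log2 fold change -2.16 ± 0.32, adjusted p = 6.8e-05). Of 4 upper layer genes tested Mef2c, Rgs4 and Lamp5 were higher and Calb1 lower. Of 7 deep layer genes tested 1, Fezf2, was higher and none was lower; Crym, Tle4 and Sox5 had log2 fold changes between -0.33 and 0.22 and did not pass. The lists of CA2 and CA3 and of dentate gyrus each had 1 gene tested, Rgs14 and Ociad2, both lower.

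Transcription factors of glutamatergic neurons moved in both directions. Of 24 tested, against 4.96% higher and 5.71% lower over all genes, 8 were higher (Tshz2, Mef2c, Etv1, Nr4a2, Satb1, Fezf2, Id2 and Tshz3) and 6 lower (Zbtb20, Zeb2, Neurod6, Lmo3, Neurod2 and Neurod1), with a median log2 fold change of 0.00. Mef2c was at 754 and 330 CPM in members of placebo mice 1 and 5 and at 521, 170 and 675 CPM in those of EPO mice 2, 4 and 6, against 45.3 to 176 CPM in other cells (log2 fold change 2.07 ± 0.25, adjusted p = 5.39e-06). Zeb2, a zinc finger repressor, was at 8.40 to 214 CPM against 643 to 764 CPM (log2 fold change -2.55 ± 0.26, adjusted p = 4.87e-07). Bcl11b, at 392 ± 166 CPM in members and 479 ± 86.2 CPM in other cells (SD, n = 5 mice), did not pass the test (adjusted p = 0.154), and pooled values of 640 and 39.5 CPM in the Nts and Vwc2l sets underlie its mean.

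Of 10 general genes of glutamatergic neurons tested, 7 were called lower (Ptk2b, Neurod6, Nptxr, Gria2, Camk2b, Baiap2 and Camk2a) and none higher, with a median of -0.59. Over all genes tested 5.71% were called lower and 4.96% higher. Log2 fold changes of the 7 genes ran from -1.03 for Nptxr to -0.51 for Camk2a. Nptxr, a neuronal pentraxin receptor, was at 147 CPM in members and 283 CPM in other cells. Gria2, an AMPA receptor subunit, was at 2361 ± 210 CPM in members and 3284 ± 404 CPM in other cells (SD, n = 5 mice; log2 fold change -0.53, adjusted p = 0.0036). Of the 10 genes used in the study to mark immature glutamatergic cells, a list chosen on these samples and thus no independent evidence, 7 were tested and 3 were higher: Fut9, which builds the Lewis x glycan, at 751 ± 67.7 against 313 ± 111 CPM, Satb1 at 153 ± 47.4 against 38.1 ± 13.6 CPM, and Elavl4 at 333 ± 34.0 against 167 ± 21.1 CPM (SD, n = 5 mice). Tle4, Sox5, Celf4 and Hs3st4 did not pass. Dcx, the microtubule protein of migrating neurons, was below the filter, with UMIs in 9 of 59 members and 21 of 268 other cells.

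Functional lists were counted in the same way, against the 4.96% of all genes called higher and the 5.71% called lower. A single call in a short list is no result about that list. Among 23 channel genes tested, the sodium channel Scn1a had the smallest p. It was at 498 and 348 CPM in members of placebo mice 1 and 5 and at 504, 685 and 272 CPM in those of EPO mice 2, 4 and 6, against 129 to 240 CPM in other cells (log2 fold change 1.29 ± 0.16, adjusted p = 7.61e-06). Kcna1 was also higher, and Scn3b, Kcnip2, Cacna1e, Cacna1a, Kcnq3 and Scn3a were lower, with larger folds for Kcnip2 (log2 fold change -1.68) and Scn3b (-1.44). Of 10 immediate early genes Fosl2 and Nr4a2 were higher and Bdnf was lower. In the neurotensin system the sorting receptor Sorcs3 was lower and Sort1, Sorl1 and Nln did not pass, and of 5 genes of fibronectin and its receptors the integrin Itga8 was lower. None of 3 EPO signaling genes passed, and Epor had 1 UMI in the members. Of 8 hypoxia genes 1, Ddit4, was lower, where 10.7% of all genes were called.

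Markers of other cell types were summed per mouse. Of the 12 GABAergic genes, Gad1 and Gad2 among them, which the rule excludes, 7 had a UMI and the list summed to 0 to 63.9 CPM in members and 3.24 to 41.7 CPM in other cells. Of 10 microglial genes 3 had a UMI, at 0 to 63.9 CPM in sum. Of the 8 Cajal-Retzius genes in the table Trp73, Lhx1 and Ndnf were at 0 in members and Reln had 4 UMIs, while Car10 was higher. This list summed to 44.6 to 182 CPM in members and 15.9 to 56.7 CPM in other cells, above them in 5 of 5 mice. Of the thalamus and habenula genes Rora, a nuclear receptor, was tested and higher (log2 fold change 1.45, adjusted p = 0.00564), the list summed to 43.6 to 166 CPM in members and 31.7 to 98.0 CPM in other cells, above them in 5 of 5 mice, and Tcf7l2, Lef1, Pou4f1 and Plekhg1 were at 0 in members. The astrocyte list summed to 205 to 790 CPM in members (median 584) and 213 to 1945 CPM in other cells (median 384), and the endothelial and mural list to 175 to 350 CPM and 172 to 328 CPM. The 10 oligodendrocyte genes were all detected and summed to 294 to 5982 CPM in members and 295 to 18422 CPM in other cells, and 10 of 59 members and 25 of 268 other cells carried at least 3 of 5 oligodendrocyte genes. Without these cells 569 genes were called in 4 mice, among them 478 of the 587 genes of the first call that were tested. None of the 9 oligodendrocyte genes tested passed at 5%. The mitochondrial share of UMIs per cell had a mean of medians of 9.98% ± 8.09 in members and 9.79% ± 5.34 in other cells (SD, n = 5 mice; two-sided exact permutation test by sign flips over mice, p = 1, smallest possible 0.0625).

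The share of members was compared between EPO and placebo. The rule genes were chosen with earlier EPO comparisons of these data known, so the comparison is no independent evidence. Of members plus other Slc17a7-positive cells, members were 5 of 56 (8.93%), 1 of 11 (9.09%) and 14 of 58 (24.1%) in placebo mice 1, 3 and 5, with 12 of 51 (23.5%), 14 of 81 (17.3%) and 13 of 70 (18.6%) in EPO mice 2, 4 and 6. Placebo mouse 5 had the highest share of all 6 mice, so the groups overlapped. The exact 95% binomial interval, for counting error only, reached from 0.230% to 41.3% in placebo mouse 3. The means were 14.1% ± 8.73 and 19.8% ± 3.30 (SD, n = 3 mice), a difference of 5.74 percentage points that did not pass a two-sided exact permutation test (p = 0.4, smallest possible 0.1). The difference was 14.5 points among the mice labelled D1 and -6.21 points among those labelled D2. Without placebo mouse 5 it was 10.8 points, and without placebo mice 1 or 3 and EPO mouse 2 it was 3.18, 3.26 and 3.88 points. Without the barcodes found in more than 1 mouse it was 7.83 points (exact permutation p = 0.4), and thinning each cell to 1000 UMIs gave 5.05 points (exact permutation p = 0.7). A change in the number of such cells and a change in the capture of their RNA cannot be told apart in a share that rests on detected genes.

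**Figure D4:**
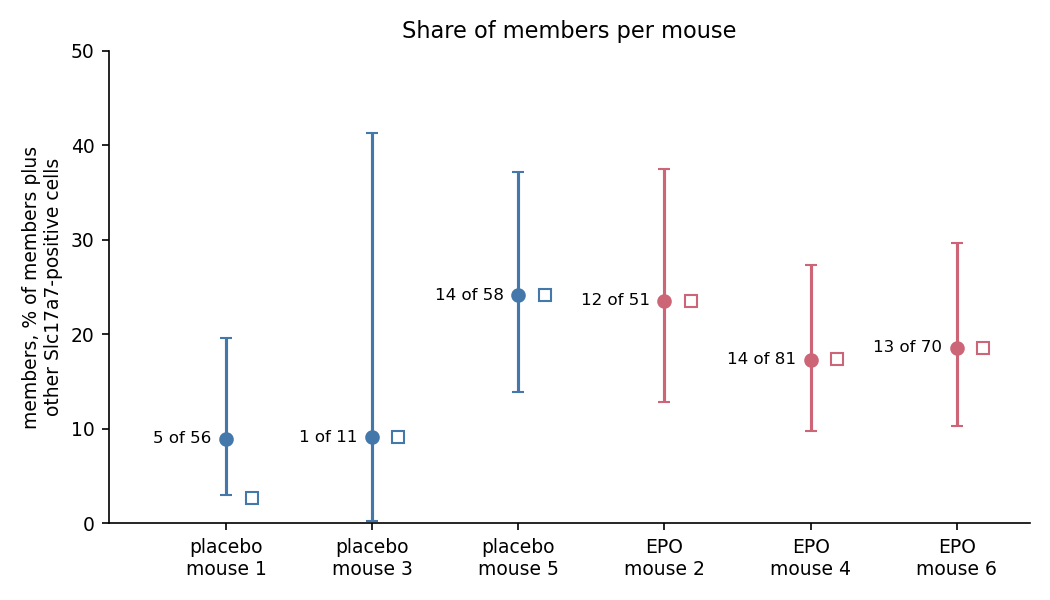
Members as a percent of members plus other Slc17a7-positive cells in each mouse; filled circles with exact 95% binomial intervals (counting error only) and cell numbers, open squares without barcodes found in more than 1 mouse. Placebo mice 1 and 3 were at 8.93% and 9.09%, and placebo mouse 5, at 24.1%, above the EPO mice.

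Within members, no gene passed the test between EPO and placebo. With placebo mouse 3 left out, 2 placebo and 3 EPO mice were fitted, and 0 of 6251 genes, 0%, passed an adjusted p of 5% with edgeR, limma or DESeq2, while 202 genes, 3.23%, had an unadjusted p under 0.05 in edgeR. Other settings called 1 to 3 genes, all lower after EPO: 3 with no filter on low counts, 3 with all mice, 1 with the D number as a covariate and 2 without EPO mouse 4. Without the barcodes found in more than 1 mouse 0 genes were called by edgeR and 252 had an unadjusted p under 0.05, with placebo mouse 5 as the only placebo mouse. The levels of the rule genes, given above, overlapped between the groups for Slc17a6, Nts, Vwc2l and Fn1, as did Fam19a2. The pooled genes of the sets did not pass either: Tshz2 had a log2 fold change of -0.34 ± 0.31, Bcl11b 0.02 ± 0.40, Mef2c -0.29 ± 0.49 and Etv1 0.93 ± 0.39, each with an adjusted p of 1. Of the 10 immature glutamatergic genes 9 were tested and none passed, with a median log2 fold change of 0.01.

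Of the oligodendrocyte list 8 genes were tested, of which 8 were below 0. An unadjusted p under 0.05 in edgeR was found for 7 of them, against 3.23% of all genes tested. Their median log2 fold change was -2.63 against 0.02 over all genes tested. Of the 59 members 10 carried at least 3 of 5 oligodendrocyte genes. Without these cells placebo mouse 1 kept 2 of its 5 members and placebo mouse 5 kept 13 of 14. EPO mice 2, 4 and 6 kept 12 of 12, 10 of 14 and 11 of 13. A fit without them had placebo mouse 5 as its only placebo mouse, and their part in these values was not tested.

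**Figure D5:**
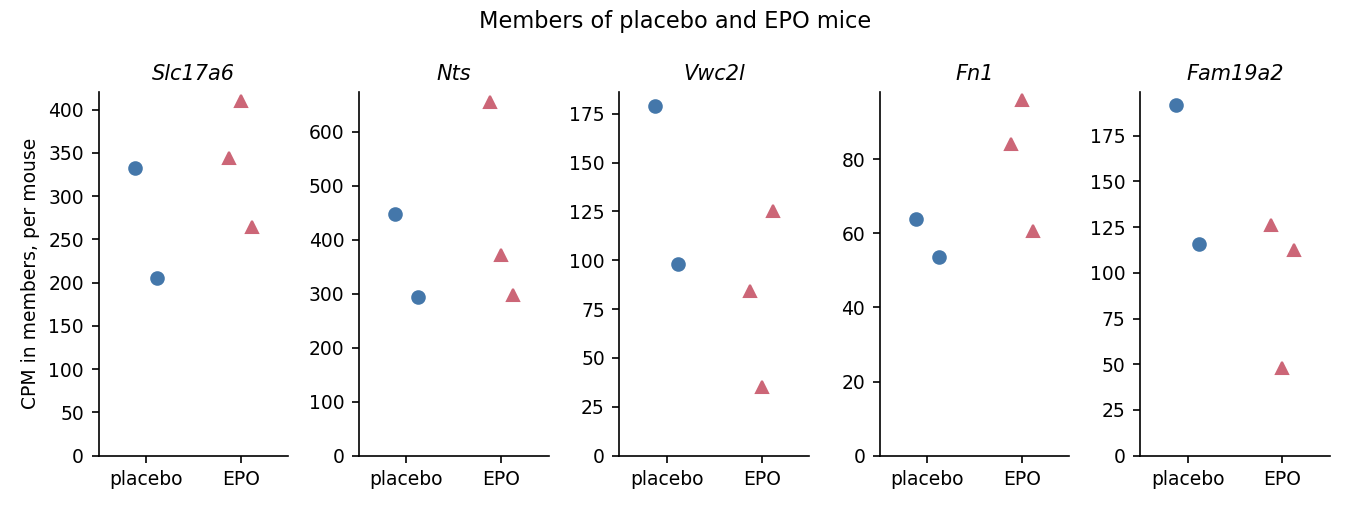
CPM in members of placebo mice 1 and 5 (circles) and EPO mice 2, 4 and 6 (triangles) for the 4 rule genes and Fam19a2, on linear axes from 0. The groups overlapped for each of the 5 genes.

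The EPO effect in members was also compared with that in other Slc17a7-positive cells by the class by treatment term. Of 6146 genes 2, 0.0325%, passed, the hemoglobin genes Hbb-bs and Hbb-bt, which mark red blood cells. Hbb-bs was at 4299 CPM in the other cells of placebo mouse 1 and at 20.4 to 66.1 CPM in those of the other 4 mice, and in members at 230 and 17.8 CPM in placebo mice 1 and 5, with 67.2, 61.1 and 82.2 CPM in EPO mice 2, 4 and 6 (log2 difference of the EPO effects 4.43 ± 0.57, adjusted p = 0.000775). Both calls rested on the other cells of placebo mouse 1. Without that mouse neither gene was called and 3 other genes were called with lower values, in a fit with 1 placebo mouse, placebo mouse 5, that is assumed to vary like the EPO mice. Leaving out the barcodes found in more than 1 mouse also removed placebo mouse 1 from the fit and gave 3 calls, and none was called without EPO mouse 6.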

How the data were processed

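CA1 cells of 3 placebo and 3 EPO mice were profiled by Drop-seq. The authors deposited raw UMI counts per gene and barcode in 1 table, with 1000 barcodes per mouse and 20234 genes, and a missing value, which stands for no UMI, was set to 0. The submitters' processing notes name bcl2fastq 2.15, STAR 2.4.0 and mm10; the counting tool and annotation are not given in the sources used here. Antisense and overlapping genes were not separated. The study's filter of more than 1000 genes leaves 390 placebo and 583 EPO barcodes, the filter used here 684 and 948, with 267231 to 2150763 UMIs per mouse.

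The members and gene lists were chosen with earlier results of these data known. Doublets were called per mouse with Scrublet in scanpy 1.11.5. UMIs were summed per mouse and class for mice with at least 5 members and tested with edgeR 4.0.16 (quasi-likelihood, TMM, Benjamini-Hochberg 5% over all genes tested) in R 4.3.3. Genes needed 20 UMIs expected in members from the pooled level of both classes, or 20 UMIs over all members for EPO against placebo. The 4 rule genes, 4 excluded genes and Slc17a7 stayed out of the adjustment. The fits were tested on simulated data. Shares were compared by an exact permutation test over mice. Alternatives were limma 3.58.1, DESeq2 1.42.0, other scalings and filters, matched depth, thinning, and leaving out each mouse. Leaving out barcodes found in more than 1 mouse, or cells with oligodendrocyte genes, was added after the data had been seen.

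Genes were named by rule: up to 10 per direction with the largest fold among those past 5% that moved the same way in each mouse, up to 5 per direction by p for EPO effects or else the 1 with the smallest p, and up to 4 per list by p. A few genes that this rule named are not reported here. The remaining genes of the sets, and Wfs1, Pou3f1 and Nov, were chosen after their values were seen. Gene positions are from GENCODE vM21. Each mouse is 1 library, so p-values for EPO against placebo measure the spread between animals. In the fits with the mouse as a block, they measure the spread of the class difference across animals.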

Additional observations from a re-analysis of the deposited data

Results flagged for a closer look

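The EPO effect differed between members and other Slc17a7-positive cells for 2 genes by the class by treatment term of edgeR, Hbb-bs (log2 difference 4.43, adjusted p = 0.000775) and Hbb-bt (log2 difference 5.37, adjusted p = 0.0387). The other cells of placebo mouse 1 held 1491 Hbb-bs and 488 Hbb-bt UMIs, and those of the other 4 mice at most 35 and 6.

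Over 50 groups of 5 mice, 3 values stood apart from the other 4 mice by Dixon's criterion, which chance does in about 1 of 20 groups. Grem1 was at 77.5 CPM in the other cells of EPO mouse 4. Anln was at 262 CPM in the other cells of placebo mouse 1. Dcn was at 65.5 CPM in the members of EPO mouse 4.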

How the results depend on the processing

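The 20 genes named by fold kept their direction and their call in each of the 340 values that 20 alternatives gave for them. Genes below the filter of an alternative gave no value there. These genes were picked for large folds that agreed in each mouse, so this is largely set in advance. Of 52 called genes that the text or the lists name, 36 kept both under each alternative that tested them, 59 of 953 values lost the call and none changed sign. Slc1a2, not called in members against other cells, was higher at matched depth (log2 fold change 0.98). The count of 656 genes fell to 317 with DESeq2, 362 with no mouse block and 142 at matched depth, and leaving out 1 mouse gave 320 to 647. At least 3 of the 4 rule genes could not be fitted, because no mouse had 5 such members.

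Between EPO and placebo in members, 3 genes were called with no filter on low counts, 3 with all mice and 1 with the D number as a covariate, each lower after EPO. Without cells carrying at least 3 of 5 oligodendrocyte genes 1 gene, Calb1, was called, in a fit with placebo mouse 5 as the only placebo mouse, where 1 cell of the Nts set held 33 Calb1 UMIs, and leaving out 1 mouse gave 0 to 2, the latter without EPO mouse 4. For the difference of the EPO effects limma called 0 genes, no filter 4, and the fit without cells carrying oligodendrocyte genes 1, and leaving out 1 mouse gave 0 to 6, with 0 without EPO mouse 6 and 6 without placebo mouse 5. The difference in share was 4.02 to 9.19 percentage points over the alternatives on all 6 mice with 2 rule genes and the same base. It was 3.18 to 10.8 points with 1 mouse left out, and -6.21 among the mice labelled D2. Of all passing barcodes, members were a mean of 2.44% in placebo and 4.23% in EPO mice, 1.79 points apart (exact permutation p = 0.2). With at least 3 of the 4 rule genes the means were 2.36% and 4.38%, 2.02 points apart (exact permutation p = 0.4). These 2 differences have a lower base and are not comparable in points. The mitochondrial difference of 0.182 points became -1.54 with means in place of medians and ran from -0.995 to 0.995 with 1 mouse left out.

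No paired analysis was possible because the labels give no replicate number to both treatments; members and other cells were compared within mice, and with the D number as a block the difference in share was 4.15 points (exact permutation p = 0.556). Limits are the 59 members, the 2 placebo mice in the fits, and 41 barcodes shared by placebo mouse 1 and EPO mouse 4.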

Other observations

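The 6 members with neither Nts nor Vwc2l were defined by Slc17a6 and Fn1 and held 44826 UMIs. Adcyap1, the precursor of the neuropeptide PACAP, had UMIs in 10 of 22 cells of the Nts set, 3 of 27 of the Vwc2l set and 1 of 268 other Slc17a7-positive cells, at 65.4, 11.9 and 0.450 CPM, a gene below the filter and chosen after its values were seen. Cck was at 411 CPM in the Nts set and 1577 CPM in the Vwc2l set, with 870 CPM in the other cells between them.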
